A study of Arabidopsis thaliana with 6 samples.

Results

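The CYP71B cluster on chromosome 3 of Arabidopsis thaliana is a tandem group of cytochrome P450 genes from CYP71B19 (AT3G26170) to CYP71B35 (AT3G26310). The gene table lists 20 genes over this stretch, of which 13 are CYP71B genes or pseudogenes, and other genes lie between CYP71B24 and CYP71B25. The members are CYP71B19 to CYP71B26, CYP71B34 and CYP71B35, 10 genes in all, and they were matched by symbol or locus to probe sets named with that gene alone. Of the 10, 8 have such a probe set among the 22746 that are not controls, while CYP71B19 and CYP71B20 share 1 probe set, whose signal belongs to neither alone. The cluster was chosen by the log2 signals of its genes in the comparison of pvip1 pvip2 with Col-0, in which several stood out. The genotype differences of the members are therefore given as a description, with no test, and they support nothing further.

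Cytochrome P450 enzymes are haem proteins, in plants mostly anchored in the endoplasmic reticulum, that insert oxygen into small molecules with electrons from a reductase. The CYP71 clan is large in plants and makes much of their specialised metabolism. In Arabidopsis the best known CYP71B enzyme is PAD3 (CYP71B15), which completes the synthesis of the phytoalexin camalexin. Genes in tandem often arise by unequal crossing over, and their copies can take on separate patterns of expression.

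The study compared pvip1 pvip2 double mutants with Col-0, the wild-type accession, in 3 biological replicates each on single-colour ATH1 arrays, at 10 days after germination. Both genotypes were germinated on MS agar plates and kept at 21°C with 16 h of light. Wild-type roots were cut off, and the mutants were wounded in the same way at their vestigial hypocotyl. PVIP genes encode PHD-finger proteins also called OBERON, which act in meristems, and the alleles are not described in the sources used here. RNA came from whole shoots, so fewer cells of a type and less RNA per cell cannot be told apart.

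Some properties of the arrays bear on the values that follow. The targeted gene measured here, OBE1 (AT3G07780, one of the PVIP genes), read 5.08 and 5.17 in Col-0 replicates 2 and 3 but 2.42 in the array labelled Col-0 replicate 1, beside 2.53 to 2.61 in the mutant. In OBE1 that array goes against its label. In PYK10 and AT1G26380, which are described below, it read like the other Col-0 arrays. PYK10 stood at 10.06 in it, beside 10.01 and 9.98 in Col-0 replicates 2 and 3 and 11.76 to 11.80 in the mutant. AT1G26380 stood at 3.22, beside 3.12 and 3.21 and 5.39 to 5.75. Both genes were called in a fit that counted this array as Col-0, so these values cannot test its label. The source of its OBE1 value was not tested, and values without this array are given where they matter. In Col-0 replicate 3 the GAPDH control was 2.31 higher at its 3' than at its 5' end on the log2 scale, against 0.55 to 1.08 elsewhere, and the 25S rRNA control stood at 10.15, against 5.96 to 7.67. Replicates 3 of both genotypes were washed on a second fluidics station. The wash modules were even-numbered for the mutant and odd-numbered for Col-0, and module and genotype cannot be told apart.

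Along the cluster the members did not move as a block. CYP71B23 and CYP71B24, neighbours apart from CYP71B3, and CYP71B26 further on were higher in the mutant on every array, whereas CYP71B22, directly before CYP71B23, was lower on every array. CYP71B34 overlapped between the genotypes, CYP71B35 was slightly lower, and CYP71B21 and CYP71B25 stayed at the bottom of the scale in both. Values below are log2 signals, each difference is the mutant mean minus the Col-0 mean, and its standard error (SE) comes from the limma fit over all probe sets.

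**Figure D1:**
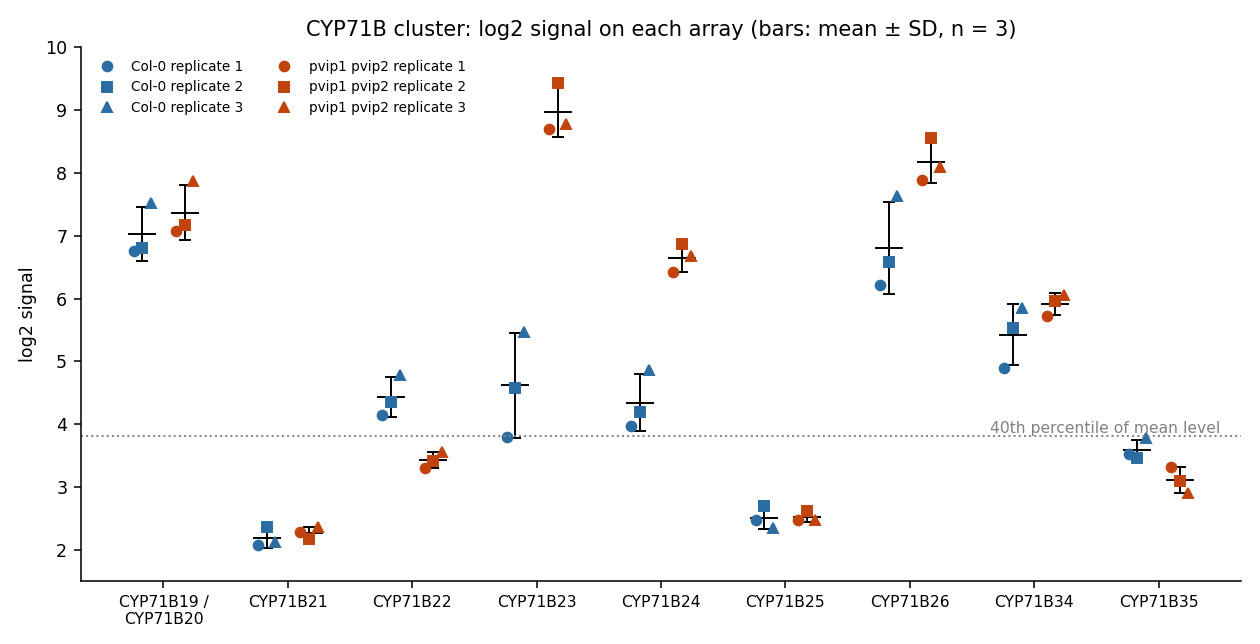
Log2 signal (vertical axis) of the 9 probe sets of the cluster on each of the 6 arrays, in gene order. Points are arrays, black bars the mean and SD of 3 arrays, and the dotted line is the 40th percentile of mean level, 3.81; the Col-0 and pvip1 pvip2 points are furthest apart for CYP71B23.

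CYP71B23 (AT3G26210) encodes a P450 whose substrate is not stated in the sources used here. It gave 8.71, 9.43 and 8.78 in pvip1 pvip2 replicates 1, 2 and 3, and 3.80, 4.58 and 5.47 in Col-0. The genotypes did not overlap, and the lowest mutant array lay 3.23 above the highest Col-0 array. The means were 8.97 ± 0.40 and 4.62 ± 0.84 (SD, n = 3), a difference of 4.36 (SE 0.40), or 20.5-fold on the linear scale. By size this was the 30th largest positive difference among all probe sets. The Col-0 signal of the array labelled replicate 1 lay just below the 40th percentile of mean level, 3.81, so the size of the fold depends on how the authors handled background. Without that array the difference was 3.94.

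CYP71B24 (AT3G26230) had the second largest difference in the cluster. It stood at 6.42, 6.86 and 6.67 in the mutant and at 3.97, 4.2 and 4.86 in Col-0. All 3 mutant arrays were above all 3 Col-0 arrays, with a gap of 1.57. The difference was 2.31 (SE 0.26), or 4.96-fold, and it was 2.12 without the array labelled Col-0 replicate 1.

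CYP71B26 (AT3G26290) was well above the bottom of the scale in both genotypes. Its signals were 7.89, 8.56 and 8.10 in the mutant, and 6.22, 6.58 and 7.63 in Col-0. The genotypes did not overlap, but Col-0 replicate 3 came within 0.26 of the lowest mutant array. The difference was 1.37 (SE 0.35), or 2.59-fold. Leaving out the array labelled Col-0 replicate 1 gave 1.08, and leaving out Col-0 replicate 3 gave 1.78, the latter being the array with the high GAPDH and rRNA control values. The part of those control values in the result was not tested.

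CYP71B22 (AT3G26200) went the other way. It gave 3.30, 3.42 and 3.55 in the mutant and 4.15, 4.36 and 4.78 in Col-0, with no overlap. The difference was -1.01 (SE 0.20), and the mutant was 2.01-fold lower. All mutant arrays lay below the 40th percentile of mean level, so the fold again depends on the handling of background.

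The other members differed by less. CYP71B34 (AT3G26300) stood at 5.72, 5.97 and 6.06 in the mutant and 4.89, 5.53 and 5.85 in Col-0. The genotypes overlapped through Col-0 replicate 3, and the difference of 0.49 (SE 0.26) was 0.23 without the array labelled Col-0 replicate 1. CYP71B35 (AT3G26310) gave 3.32, 3.10 and 2.90 in the mutant and 3.53, 3.46 and 3.78 in Col-0, low values that did not overlap, with a gap of 0.14. Its difference was -0.48 (SE 0.16).

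CYP71B21 and CYP71B25 gave no sign of a difference beyond their spread. CYP71B21 (AT3G26190) ran from 2.17 to 2.36 in the mutant and from 2.07 to 2.36 in Col-0. CYP71B25 (AT3G26270) ran from 2.48 to 2.62 in the mutant and from 2.35 to 2.69 in Col-0. Their differences were 0.09 (SE 0.09) and 0.02 (SE 0.10), and both lie among the dimmest 12.1% of probe sets by mean level, where signal and background were not separated here for want of detection calls. The probe set shared by CYP71B19 and CYP71B20 was bright, at 7.07, 7.17 and 7.86 in the mutant and 6.76, 6.80 and 7.53 in Col-0. It overlapped between the genotypes, with a difference of 0.34 (SE 0.28), and opposite differences of its 2 genes would not show in it.

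Of the 8 members with their own probe set, 3 were higher and 1 was lower at an adjusted p under 0.05 in the fit over the whole array. CYP71B23 and CYP71B24 were called in all 17 alternative fits. CYP71B26 was called in only 12 of 17, and CYP71B22 in 15 of 16, not on the first station alone. As background, 13.4% of the 22746 probe sets were called, 6.85% with a higher and 6.51% with a lower mutant mean, and nothing is read from the members' count, since the comparison was used to pick them. Arrays of the 2 genotypes were fully separated for 5 of the 8, beside 32.2% of all probe sets, with 3 higher in the mutant (13.4% of all) and 2 lower (18.8% of all). The median difference of the 8 was 0.29, beside -0.05 over all probe sets. Of the 8, 5 had a mean level at or above the 40th percentile, and 3 (CYP71B21, CYP71B25 and CYP71B35) did not.

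The fluidics station was shared by the genotypes, so the differences can be given within each. On the first station, with 2 arrays of each genotype, CYP71B23, CYP71B24, CYP71B26 and CYP71B22 differed by 4.88, 2.56, 1.83 and -0.90. On the second, with 1 array of each genotype and so no test, they differed by 3.31, 1.82, 0.47 and -1.23. The directions were the same on both stations, and all but CYP71B22 differed less on the second.

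Variation among replicates was not used to pick the members, and in it, over all 6 arrays, some resembled each other and others did not. Deviations from the genotype mean correlated between CYP71B23, CYP71B24, CYP71B26 and CYP71B34, the 4 members with both genotype means at or above the 40th percentile of mean level, at r from 0.838 to 0.992 over 6 pairs and 6 arrays. Without Col-0 replicate 3 these pairs ran from 0.640 to 0.965. They ran from 0.670 to 0.986 once the array labelled Col-0 replicate 1 was left out. As a background over all 6 arrays, CYP71B23 against the other 13647 probe sets at or above that level had a median r of 0.15, with quartiles of -0.46 and 0.64. No background was taken with an array left out. The genes share the same arrays, RNA and wash stations, so the values are a description.

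CYP71B22 reached the 40th percentile through its Col-0 arrays alone, and its deviations in the mutant are those of a dim signal. Its r with the 4 members was 0.835 to 0.924, or 0.465 to 0.901 without Col-0 replicate 3. The bright probe set of CYP71B19 and CYP71B20 resembled the 4 less, at 0.484 to 0.709, and at -0.18 to 0.42 without Col-0 replicate 3. The 18 pairs with a dim member, CYP71B21, CYP71B25 or CYP71B35, ran from -0.51 to 0.46. Without Col-0 replicate 3 they ran from -0.87 to 0.98, the highest being CYP71B23 with CYP71B25. Without the array labelled Col-0 replicate 1 they ran from -0.95 to 0.45. The low r of the dim pairs thus depends on the arrays kept. In Col-0 the array labelled replicate 1 was lowest and replicate 3 highest for CYP71B22, the 4 members and the shared probe set. This order was seen in 25.7% of the 13648 probe sets at or above the 40th percentile.

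**Figure D2:**
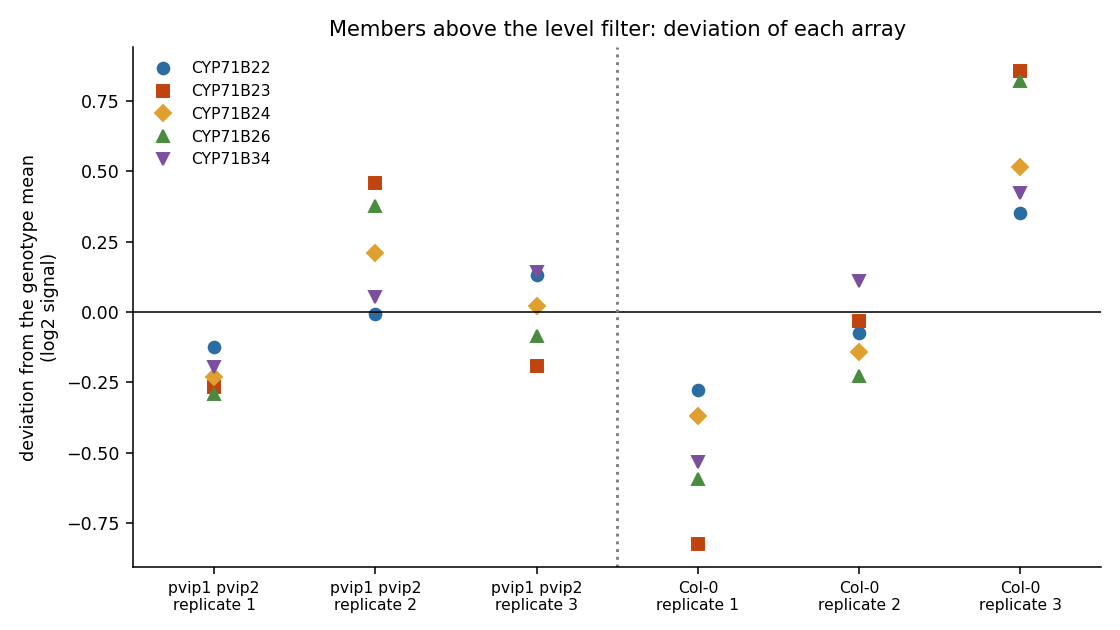
Deviation of each array from its genotype mean, in log2 signal (vertical axis), for the 5 members at or above the 40th percentile of mean level. Each symbol is a gene; all 5 lie lowest in the array labelled Col-0 replicate 1 and highest in Col-0 replicate 3, where CYP71B23 deviates by -0.82 and 0.86.

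The spread of the Col-0 replicates was wide for 2 of the members. The SD of CYP71B23 in Col-0, 0.84, was above that of 97.5% of probe sets at or above the 40th percentile, and that of CYP71B26, 0.73, above 96.3%. In the mutant the SDs were 0.40 and 0.34, above 81.9% and 74.7%. The median over these probe sets was 0.23 in Col-0 and 0.22 in the mutant.

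The genes whose pattern over the 6 arrays was most like CYP71B23 were ranked by Pearson's r among 7318 other probe sets with 1 gene at or above the 40th percentile. The highest values belonged to AT1G17860 (0.998), TPI (0.997), GSTU27 (0.997), bHLH115 (0.996) and AT3G61960 (0.996). Much of such an r is the gap between genotypes, shared by every gene that differs between them. Deviations from the genotype means leave this gap out, and in them these genes had r from 0.933 to 0.991 with CYP71B23. CYP71B24, CYP71B26 and CYP71B34 had 0.953, 0.973 and 0.878. The ranked genes were picked by a high r, so these values are a description. The genotype difference ran from 0.50 for TPI, a triosephosphate isomerase, to 2.73 for AT1G17860. It was 1.60 for GSTU27, a glutathione transferase. AT1G17860 gave 9.07, 9.81 and 9.35 in the mutant and 6.20, 6.62 and 7.23 in Col-0, so its replicates took the same order as those of CYP71B23 in Col-0.

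CYP71B genes outside the members were tested in the same limma fit, with p-values adjusted over all probe sets. Of 27 such genes and pseudogenes in the gene table, 11 have a probe set of their own. Of the 11, 3 rose in the mutant and none fell, beside 6.85% and 6.51% of all probe sets, and the median difference of the 11 was 0.04. With so few genes named, the list says little about the family as a whole. Of the 11 genes, 7 lay below the 40th percentile of mean level.

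CYP71B29 (AT1G13100), from another group of CYP71B genes on chromosome 1, had the largest of these rises. It gave 6.54, 6.81 and 7.33 in the mutant and 5.35, 4.58 and 5.11 in Col-0. The genotypes did not overlap, and the rise was 1.88 (SE 0.27, limma adjusted p = 0.003204). CYP71B6 (AT2G24180), which turns indole-3-acetonitrile into indole-3-carbaldehyde and the carboxylic acid, gave 8.80, 8.99 and 8.57 against 7.42, 7.52 and 7.75. It rose by 1.23 (SE 0.17, limma adjusted p = 0.002759), again with no overlap.

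CYP71B36 (AT3G26320) is the gene directly after CYP71B35 and so extends the cluster. It gave 4.46, 3.93 and 4.18 in the mutant and 3.13, 2.80 and 3.31 in Col-0, and all mutant arrays were above all Col-0 arrays. It rose by 1.11 (SE 0.20, limma adjusted p = 0.008014). On the first station alone the rise was 1.23 and the call was lost (adjusted p = 0.0586, within a range of 0.00335 to 0.0586 over its alternatives). Its Col-0 values lie below the 40th percentile, so the fold depends on background.

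The next gene, CYP71B37, stood at -0.03 (SE 0.13), and CYP71B16, just before the cluster, at -0.07 (SE 0.07), both at low signals. CYP71B5 stood at 0.64 (SE 0.29, limma adjusted p = 0.1981). Its mutant arrays gave 6.94, 6.05 and 7.24, and without pvip1 pvip2 replicate 2 its difference was 0.99 and was called (adjusted p = 0.0251, within 0.0251 to 0.574 over its alternatives). CYP71B28, a neighbour of CYP71B29 in the gene table, stood at 0.07 (SE 0.19), and CYP71B27, CYP71B30P, CYP71B31 and CYP71B38 differed by -0.10 to 0.04.

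**Figure D3:**
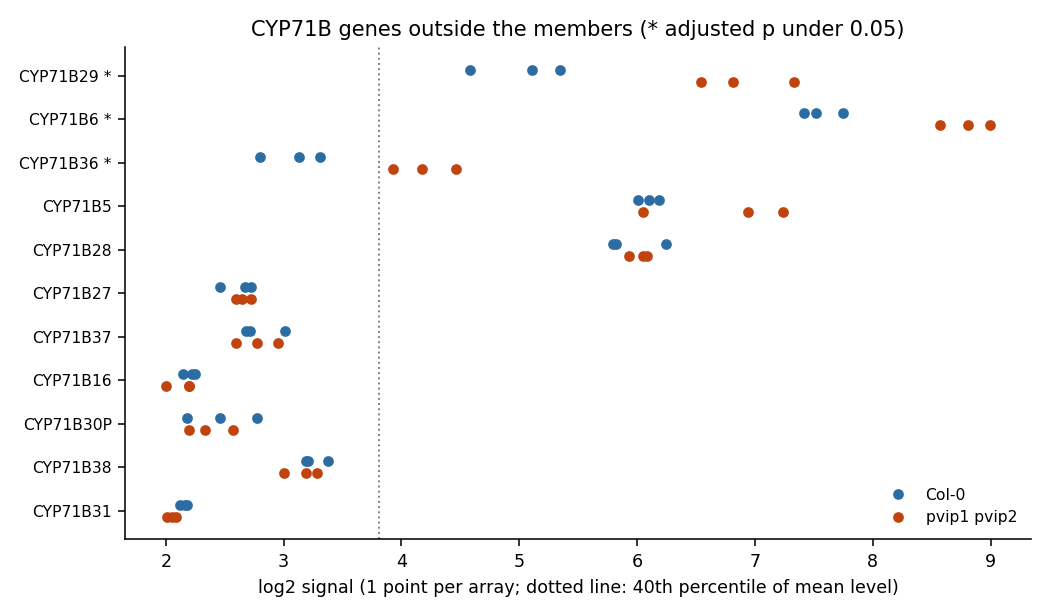
Log2 signal (horizontal axis) on each of the 6 arrays for the 11 CYP71B genes outside the members, 1 point per array. Stars mark the 3 genes called by limma, CYP71B29, CYP71B6 and CYP71B36, in which the genotypes do not overlap; the dotted line is the 40th percentile of mean level, 3.81.

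Neighbours were taken as the 20 genes on each side of the cluster in the gene table and the non-members within it, 50 genes, of which 18 have a probe set of their own. Of the 18, 3 rose and none fell (limma, adjusted over all probe sets), beside 6.85% and 6.51% of all probe sets, and their median difference was -0.01. CYP71B36 was 1 of them. AT3G26440, the 15th gene after CYP71B35, rose by 2.47 (SE 0.45, limma adjusted p = 0.009234), from 3.12, 2.94 and 3.62 in Col-0 to 4.99, 6.85 and 5.25 in the mutant. Its Col-0 values lie below the 40th percentile, and the difference shrank to 0.71 under the pseudocount of 64, where the call was lost (adjusted p = 0.0709, within 0.00402 to 0.0709 over its alternatives). AT3G26450, the 17th, rose by 0.61 (SE 0.17, limma adjusted p = 0.04833), a call that held in only 1 of the 6 fits with an array left out, the one without the array labelled Col-0 replicate 1 (differences from 0.507 to 0.664 in the other 5). It was also lost with quantile normalization and with equal array medians, at 0.56 and 0.59. On the first station alone none of the 18 was called by limma.

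None of the 7 neighbours before CYP71B19 was called, and AT3G26070 stood at -0.50 (SE 0.18, limma adjusted p = 0.1211), and was called without pvip1 pvip2 replicate 1, at -0.67. The 6 genes with a probe set of their own between CYP71B36 and AT3G26440 differed by -0.18 to 0.25, and none was called.

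**Figure D4:**
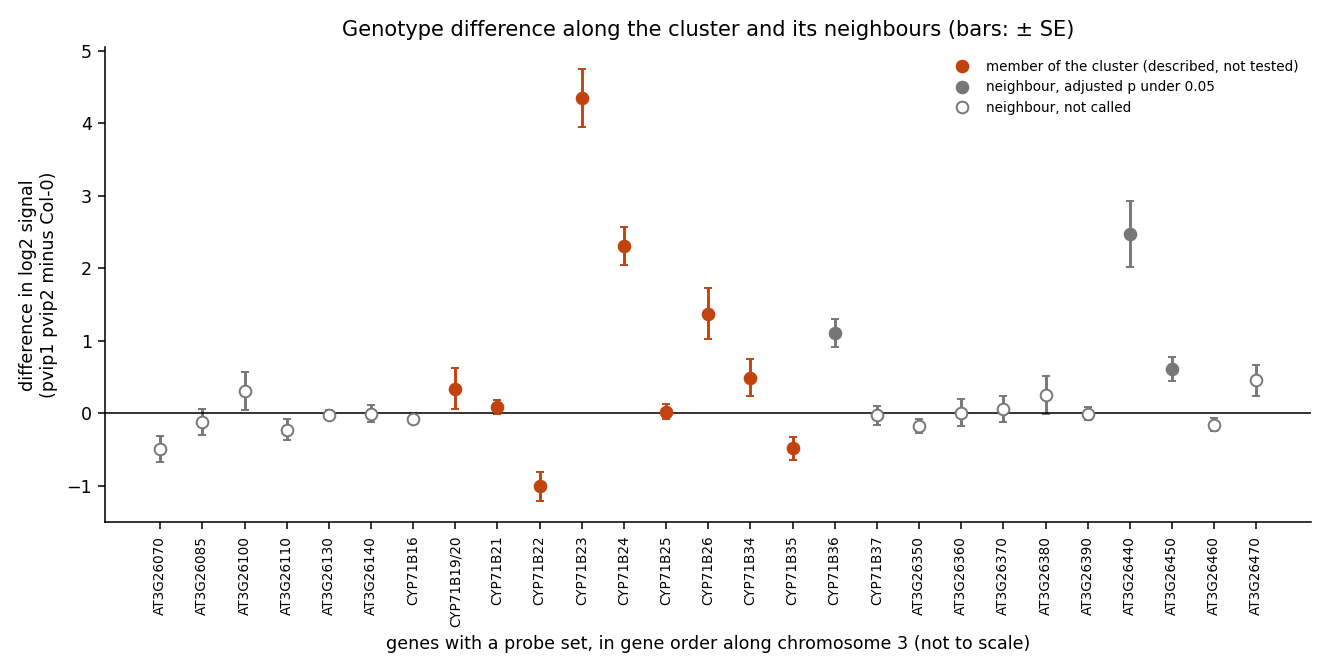
Difference in log2 signal, pvip1 pvip2 minus Col-0 (vertical axis, bars ± SE), for the cluster and the 18 neighbours with a probe set, in gene order and not to scale. CYP71B23 stands at 4.36 and CYP71B22, directly before it, at -1.01; filled grey points are the 3 neighbours called by limma.

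Genes of the camalexin and indole pathway were followed because PAD3 belongs to the same family. Of 21 genes only CYP71B6, already counted above, and AT1G26380 have a probe set of their own, so the pathway was mostly not analysed here. Both rose, beside 6.85% of all probe sets. AT1G26380 (FOX1), an oxidoreductase of indole defence compounds, gave 5.75, 5.39 and 5.74 in the mutant and 3.22, 3.12 and 3.21 in Col-0. It rose by 2.44 (SE 0.18, limma adjusted p = 0.0001384), but its Col-0 values lie below the 40th percentile, and the rise was 1.38 and 0.64 under the pseudocounts of 16 and 64. PAD3 has no probe set named with it alone.

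Other P450 genes were represented thinly. Of 214 named P450 genes outside CYP71B, 4 have a probe set of their own. Of the 4, limma called 0, beside 13.4% of all probe sets, and none had an unadjusted p under 0.05. With so few genes named, this says little about other P450 genes. CYP78A9 stood at -0.45 (SE 0.22), and CYP51G2, CYP79A2 and CYP84A4 between -0.09 and 0.13. None of 8 redox partners of P450 enzymes had a named probe set. Of 12 detoxification genes, 3 were named, and limma called 0 of them, beside the same 13.4%. None had an unadjusted p under 0.05, and 3 genes say little about the list. UGT73B5, a glycosyltransferase, stood at 0.50 (SE 0.25), and GSTU25 and UGT73B4 at -0.01 and 0.11.

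Among markers of defence signalling, 1 of 10 genes of the salicylate list and 1 of 8 of the jasmonate list were named. WRKY53 rose and PDF1.2 fell in the limma fit, with 1.27 (SE 0.21) and -1.48 (SE 0.29). Over all probe sets 6.85% were called higher and 6.51% lower. With 1 gene named for each list, neither kind of signalling can be read from them.

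Markers of other tissues were read beside the cluster. Of 7 root markers 3 were named. PYK10, a beta-glucosidase abundant in roots, was at 11.76 to 11.80 in the mutant and 9.98 to 10.06 in Col-0, a rise of 1.76 (SE 0.11, limma adjusted p = 9.249e-05). The root hair expansins EXPA7 and EXPA18 were not called. They read 4.29 and 4.23 in pvip1 pvip2 replicate 2, the array in which CYP71B23, CYP71B24 and CYP71B26 were highest, and 3.10 to 3.63 in the other arrays. The part of root tissue in that array's values was not tested. The summed linear signal of the 3 ran from 3505 to 3581 in the mutant and from 1028 to 1092 in Col-0, nearly all of it PYK10.

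Of 8 leaf photosynthesis genes 7 were named, 2 fell and none rose, beside 6.51% and 6.85% of all probe sets, and their summed signal ran from 19983 to 25332 in the mutant and from 28812 to 31706 in Col-0. PORB fell at -1.13 (SE 0.18, limma adjusted p = 0.005229), and LHCB4.2 at -0.72 (SE 0.18, limma adjusted p = 0.03306), a call that held in only 1 of 6 fits with an array left out, the one without pvip1 pvip2 replicate 1 (differences from -0.81 to -0.56 in the other 5). With the replicate block 3 of the 7 were called lower, beside 2233 of all 22746 probe sets in that fit and 1481 in the main fit. Between the genotype means, CYP71B23, CYP71B24 and CYP71B26 were higher where PYK10 was higher and PORB lower. Within Col-0 the markers did not all move alike. From the array labelled replicate 1 to replicate 3, CYP71B23, CYP71B24 and CYP71B26 rose. Over these arrays PYK10 read 10.06, 10.01 and 9.98 and PORB 11.08, 11.17 and 11.41. PRK fell through 11.48, 11.05 and 10.82, and SBPASE through 10.77, 10.43 and 9.95. RCA fell through 12.82, 12.52 and 12.41. LHCB4.1, LHCB4.2 and PSAE-1 neither rose nor fell steadily. The part of tissue make-up in the members' differences was not tested.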

How the data were processed

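The authors deposited a log2 signal for each probe set on each of 6 arrays. GCOS is named without a version in the submitters' processing notes, and the summarising, background correction and normalization are not given in the sources used here. The values, 1.69 to 13.4, were taken as base 2 because another base would exceed a 16-bit scanner. The deposited scanner setting files were read only for the fluidics station. Probe sets were named from the platform annotation, updated through a gene table of TAIR10.1 that served for names and gene order: of 22746, 13513 have 1 gene, 503 several and 8730 none here.

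The comparison of genotypes used limma 3.58.1 under R 4.3.3 (a linear fit and eBayes with a trend, two-sided, no level filter), and a call means a Benjamini-Hochberg adjusted p under 0.05 over all 22746. The 64 controls were left out. The labels call the arrays biological replicates, the p-values measure the spread between them, and their number limits the precision. Deviations from the genotype mean correlated between same-numbered arrays at r = 0.54, 0.31 and 0.12, and no r between differently numbered arrays is given here. The main fit did not pair the arrays by number, and a fit with the replicate block was an alternative. At most 24 values were equal between any 2 arrays.

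The members and lists were chosen with earlier results of these data known. All members are named, with up to 4 called genes of a list by size, and the 5 genes most like the member with the largest difference. Other genes are named with their values after these were seen. Alternatives were filters at the 40th and 60th percentile of mean level, no variance trend, array weights, the replicate block, quantile normalization, equal medians, pseudocounts of 16 and 64, the station as a block, the first station alone and each array left out. The fit was tested on simulated data. Probe, promoter and protein sequences were not used here, so cross-hybridisation between the related genes was not tested.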

Additional observations from a re-analysis of the deposited data

How the results depend on the processing

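The number of called probe sets, 3040, was 1826 with the filter at the 60th percentile, which tests fewer probe sets, 946 on the first station alone, which has fewer arrays, and 1773 to 2800 with 1 array left out. It was 4369 with the replicate block, which changed no call of a neighbour or a CYP71B gene and added that of PRK (-0.59, adjusted p = 0.0156, within 0.0156 to 0.405 over its alternatives). The differences of the members, which describe and do not test, ran from 2.65 to 4.88 for CYP71B23, 0.96 to 2.57 for CYP71B24, 0.98 to 1.83 for CYP71B26 and -1.145 to -0.20 for CYP71B22. The lowest sizes came with the pseudocount of 64, which by construction shrinks changes of dim probe sets: 2.65, 0.96, 0.98 and -0.20. It also brought CYP71B29 to 0.93, CYP71B36 to 0.18, WRKY53 to 0.36 and PDF1.2 to -0.41, all still called by limma. With the pseudocount of 16 CYP71B23, CYP71B24 and CYP71B22 stood at 3.64, 1.67 and -0.50. CYP71B35 stood at -0.19 and -0.07 with the pseudocounts and at -0.29 on the first station. CYP71B25 changed sign in 4 of 15 alternatives, within -0.06 to 0.12.

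With the filter at the 60th percentile the camalexin and indole list had 1 called gene in place of 2, and the neighbours 1 in place of 3, because dim genes were not tested. On the first station alone 0 neighbours were called. With 1 array left out, the called CYP71B genes outside the members numbered 3 to 4 and the called neighbours 2 to 3. No P450 gene outside CYP71B passed the filter at the 60th percentile, so that alternative gave no count. The dim signals of CYP71B21, CYP71B25, CYP71B35 and, in the mutant, CYP71B22 limit what can be said of them, as no detection calls were used here.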
